A study of Mus musculus with 12 samples.

Results

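The genes described here are 34 mouse genes of glucose uptake, glycolysis, lactate handling, the pentose phosphate pathway and the response to HIF-1. They were taken by symbol from a listed set, with no threshold on their values, but the set was chosen with earlier results of these data known. All 34 had a row among the 24346 genes of the expression table. Their RNA was measured by RNA sequencing in bone-marrow-derived macrophages of WT genotype, in 12 libraries that fell into 4 groups of 3. Cells in every group had been grown from mouse bone marrow for 7 days with the macrophage growth factor M-CSF in RPMI medium with 10% serum. The control group received neither agent. The LPS group received lipopolysaccharide, a component of the bacterial cell wall that is sensed by TLR4, at 1 ng/ml for 3 h. The Tm group received tunicamycin, an inhibitor of N-linked glycosylation that causes endoplasmic reticulum (ER) stress, at 5 ug/ml. The Tm_LPS group received tunicamycin for 3 h before LPS. The sources used here give neither the total time of exposure in the Tm group nor whether the drug was still present while LPS acted, and they do not name the age or strain of the mice. By its title the study asked how ER stress alters the inflammatory response of macrophages.

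Glycolysis converts glucose to pyruvate in the cytosol, and in activated macrophages much of that pyruvate is reduced to lactate and exported instead of entering the mitochondria. The pentose phosphate pathway branches off after hexokinase and yields NADPH, which macrophages use for the oxidative burst and for redox balance, as well as ribose for nucleotides. HIF-1 is a transcription factor whose alpha subunit is hydroxylated and degraded when oxygen is present, and which binds promoters and enhancers of many of these genes when the subunit is stabilised, as happens in hypoxia and in macrophages stimulated with LPS.

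HIF-1 binds a short core, ACGTG or GCGTG, so the promoter windows of the members were searched for both, on both strands. The windows are RefSeq's, on build GRCm38.p6, and run from 250 bases before each annotated start to 50 after it. All 34 members matched, with 48 windows. ACGTG was present in 52.1% of the member windows and in 19.6% of all 32851 windows of the same length. GCGTG was present in 58.3% and 32.4% respectively, and either core in 81.2% and 43.8%. Either core was found in at least 1 window of 31 members, and in no window of Gpi1, Eno2 and Tpi1. Member windows were richer in G and C, with a median of 61% against 52.7%, and among windows with 55% to 75% G and C either core was present in 88.9% of 36 member windows and 63.4% of all 13062. A match is a description of the letters, not evidence of a binding site. The 250 bases before the start are printed for 5 members on which the results below turn, chosen after their values were seen, 5′ to 3′ on the strand of the gene, with the capitals marking ACGTG or GCGTG or their reverse complements. The palindrome CACGTG, present in 7.15% of all windows and in 12.5% of the member windows, holds ACGTG on both strands, and those overlapping matches were both counted.
Slc2a1: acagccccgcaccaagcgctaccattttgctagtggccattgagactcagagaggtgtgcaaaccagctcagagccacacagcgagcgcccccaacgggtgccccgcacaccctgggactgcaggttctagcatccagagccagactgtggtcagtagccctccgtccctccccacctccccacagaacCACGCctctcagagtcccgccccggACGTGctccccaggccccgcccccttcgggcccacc
Slc16a3: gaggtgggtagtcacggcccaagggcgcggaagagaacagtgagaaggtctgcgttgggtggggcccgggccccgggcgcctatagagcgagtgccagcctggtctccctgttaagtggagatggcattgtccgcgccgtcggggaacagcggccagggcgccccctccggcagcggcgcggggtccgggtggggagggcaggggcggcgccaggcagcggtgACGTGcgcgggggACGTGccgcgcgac
Hif1a: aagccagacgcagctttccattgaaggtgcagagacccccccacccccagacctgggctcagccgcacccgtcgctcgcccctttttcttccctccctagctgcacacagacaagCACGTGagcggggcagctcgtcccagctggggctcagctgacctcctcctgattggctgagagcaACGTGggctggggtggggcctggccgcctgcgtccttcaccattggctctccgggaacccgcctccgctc
Hk2: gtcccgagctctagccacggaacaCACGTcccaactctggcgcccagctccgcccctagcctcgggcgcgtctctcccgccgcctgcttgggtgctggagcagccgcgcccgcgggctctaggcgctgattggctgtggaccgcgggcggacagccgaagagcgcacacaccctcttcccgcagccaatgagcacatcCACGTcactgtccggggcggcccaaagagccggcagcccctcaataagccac
Ldha: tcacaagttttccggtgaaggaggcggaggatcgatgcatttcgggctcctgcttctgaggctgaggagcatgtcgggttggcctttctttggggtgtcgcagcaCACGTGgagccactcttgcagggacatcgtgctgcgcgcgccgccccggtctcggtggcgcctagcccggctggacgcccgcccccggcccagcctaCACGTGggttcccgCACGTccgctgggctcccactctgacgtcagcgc
The Slc2a1 sequence lies at chr4:119108495-119108744 on the plus strand and holds 1 match of each core. That of Slc16a3 lies at chr11:120948817-120949066 on the plus strand and holds 2 matches of ACGTG close to the start. The Hif1a sequence, at chr12:73907617-73907866 on the plus strand, holds 3 matches of ACGTG, and the Hk2 sequence, at chr6:82774455-82774704 on the minus strand, holds 2. The Ldha sequence, from the first of its 2 windows, lies at chr7:46845554-46845803 on the plus strand and holds 5 matches of ACGTG. For Slc2a1, Slc16a3, Hif1a and Ldha these starts lie inside the span that GENCODE M21 gives the gene, downstream of its first annotated start.

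The values are FPKM, which correct fragment numbers for transcript length and for the size of the library, so levels may be compared between genes as well as between libraries. Differences were tested with limma on log2(FPKM + 1) over all 10311 genes with at least 1 FPKM in at least 3 libraries, and the threshold for passing was a p of 0.05 after Benjamini-Hochberg adjustment. Differences and fold sizes below use that log2 scale, on which the change of a gene at a few FPKM comes out too small. Nothing in the labels tells whether the replicates came from separate mice or dishes, and the p-values therefore reflect only the spread between these samples, which may be technical. In bulk RNA a lower level in each cell and fewer cells of an expressing type cannot be told apart. All 34 members passed the filter on low values, and 31 had at least 1 FPKM in every library. The exceptions were Eno2, Egln3 and Ankrd37.

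Read depth was unknown. Summed FPKM per library was 561108 to 685010, and libraries correlated across genes with Pearson's r of 0.973 to 0.986 within groups and 0.889 to 0.951 between them. The treatments left their marks: Hspa5, the ER chaperone BiP, was at 841 ± 73.2 FPKM in control and 9594 ± 2056 in Tm libraries (SD, n = 3), Ddit3, which encodes the stress factor CHOP, was at 45.6 and 1601, Tnf was at 2.94 in control and 743 in LPS libraries, and Il1b was at 0.563 and 806. The 9 macrophage markers in the table summed to between 14508 and 24206 FPKM in every library, with none at 0, and most of the sum was Lyz2. Of these 9, Cd68, Fcgr1 and Cd14 fell and Adgre1 rose with tunicamycin, and Cd68, Fcgr1, Cd14 and Aif1 were lower in Tm_LPS than in LPS. Cd68 was at 4298 ± 138, 4253 ± 279, 2886 ± 221 and 3201 ± 121 FPKM in control, LPS, Tm and Tm_LPS libraries (SD, n = 3). The 9 neutrophil markers summed to 87 to 126 FPKM in control, 190 to 318 in LPS, 14.3 to 26.1 in Tm and 17.2 to 32.5 in Tm_LPS libraries, with 3 of them under 1 FPKM throughout. Of the 5 that were tested, 3 rose with LPS and 3 fell with tunicamycin. The 8 stromal markers summed to 9.13 to 11.5, 11.3 to 20, 23.7 to 42.5 and 20.1 to 49.3 FPKM in the same order. Of the 7 tested 5 rose with tunicamycin, which is 71.4%, where 17.9% of all tested genes rose. These include Col3a1 and Lum, which reached 1 FPKM only in libraries with tunicamycin. They passed the filter through those libraries, so that a higher value there had to occur. Dendritic cell markers summed to at most 3.72 FPKM, lymphoid markers to at most 0.943, and Ncr1 and Ms4a1 were listed at 0 in all libraries. The part of these marker shifts in the results below was not tested.

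In untreated macrophages the members spanned more than 4 orders of magnitude. Gapdh, Aldoa, Ldha, Pkm and Eno1 had the highest control means, 2413 ± 70.7, 2278 ± 38.6, 2105 ± 63.6, 1906 ± 27.9 and 1290 ± 43.6 FPKM (SD, n = 3). Eno2, the enolase of neurons, was lowest at 0.0636 ± 0.0748 FPKM. In all, 14 members had a control mean of at least 100 FPKM and 9 a mean under 10. The low group held the regulatory enzymes Pfkfb3 and Pfkfb4, the oxygen sensors Egln1 and Egln3, Hk2, Pfkm, Slc16a1, Ankrd37 and Eno2. Together the 34 members made up 2.18% ± 0.0741 of summed FPKM in control, 1.98% ± 0.146 in LPS, 1.82% ± 0.149 in Tm and 1.81% ± 0.173 in Tm_LPS libraries (SD, n = 3). The control libraries, at 2.11% to 2.26%, lay above all 9 others, which were at 1.63% to 2.08%. Such a share depends on the sum over all genes, 561108 to 685010 FPKM per library, as well as on the members. In LPS libraries Gapdh was at 2359 ± 311 and Ldha at 2069 ± 211 FPKM, and the members' median difference from control was -0.01. A lower share with LPS is therefore not a fall of the members. How many other gene sets separate in this way was not counted.

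**Figure D1:**
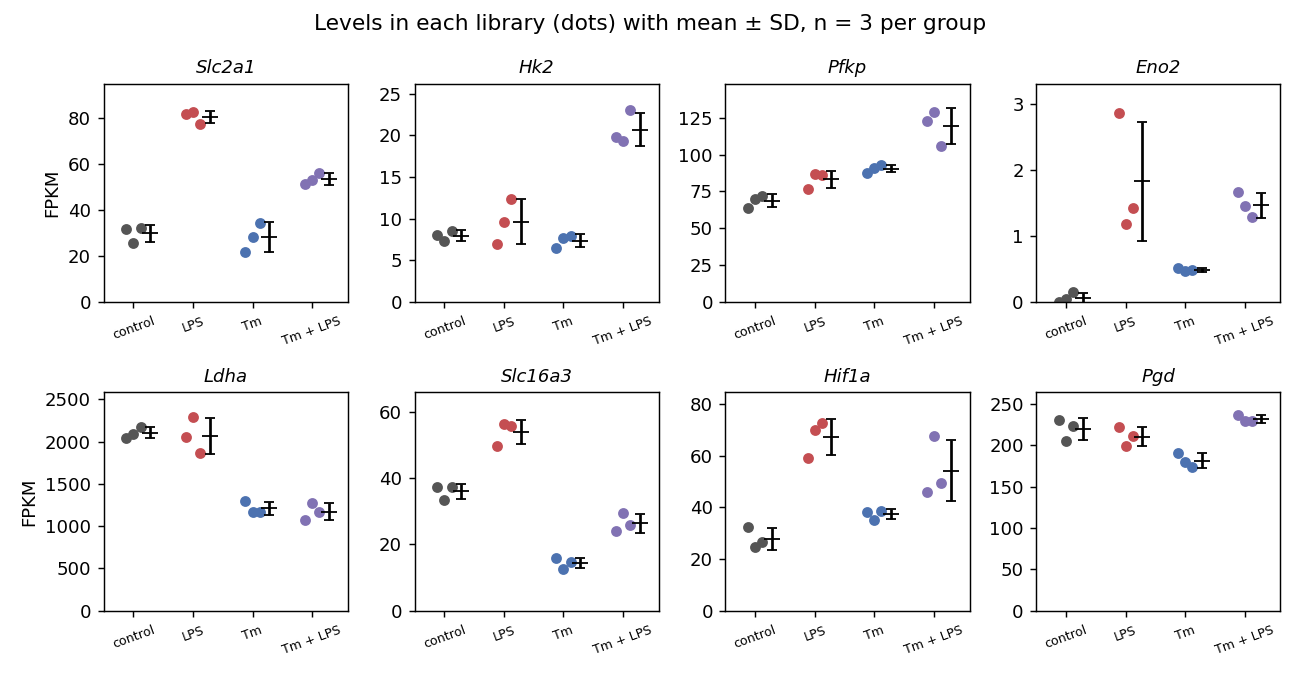
FPKM (vertical axes, starting at 0) of 8 members in each of the 12 libraries, by group (horizontal axis). Dots are libraries, and the bar beside them is the mean with its SD, n = 3. Slc2a1 and Hif1a are highest in the LPS libraries, Hk2 in the Tm_LPS libraries, and Ldha and Slc16a3 are lowest in libraries that received tunicamycin.

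LPS alone raised Slc2a1, Slc16a3, Hif1a and Eno2, and in the reported fit the abundant enzymes had no detected difference. That depended on the scaling. With quantile normalization Aldoa, Pgk1, Eno1 and Pkm passed as lower, with limma adjusted p of 0.044, 0.00898, 0.0461 and 0.0111. In the reported fit 4 of the 34 members rose, which is 11.8% and near the 10.5% of all tested genes that rose. The 4 include Eno2, which passed the filter only through libraries with LPS, so that a higher value there had to occur. A single member fell, which is 2.94%, where 7.86% of all tested genes fell. In either direction 18.4% of all tested genes passed. The members' median difference was -0.01, and that of all tested genes 0.00.

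Slc2a1 (chr4:119108711-119137983, plus strand) encodes GLUT1, the main glucose transporter of activated macrophages. It was at 31.5, 25.7 and 32.2 FPKM in the control libraries, 81.6, 82.5 and 77.4 in LPS, 21.8, 28.4 and 34.5 in Tm, and 51.3, 52.9 and 56.2 in Tm_LPS. Every LPS library was above every other library, and the Tm_LPS libraries lay between them and the overlapping control and Tm libraries. LPS raised it by 1.41 ± 0.14 (SE), which is 2.65-fold, with a limma adjusted p of 1.15e-06.

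Hif1a (chr12:73901375-73947530, plus strand), the regulated subunit of HIF-1, was at 32.6, 24.5 and 26.5 FPKM in control, 59.3, 70 and 72.6 in LPS, 38.3, 35.1 and 38.8 in Tm, and 45.8, 67.7 and 49.4 in Tm_LPS libraries. The control libraries were lowest and did not overlap any other group, and LPS and Tm_LPS libraries overlapped through Tm_LPS replicate 2. The LPS difference was 1.25 ± 0.15, or 2.37-fold (limma adjusted p = 7.63e-06). An antisense gene and a protein-coding gene on the same strand overlap Hif1a. The sources used here do not say whether the counting used strand, so reads of these genes could not be separated. Genes on the opposite strand also overlap Slc2a1, Hk1, Hk2, Pfkp and G6pdx, among other members, and the same limit holds for them.

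Slc16a3 (chr11:120948480-120960868, plus strand) encodes MCT4, the transporter through which glycolytic cells export lactate. It was at 37.3, 33.4 and 37.3 FPKM in control and at 49.6, 56.3 and 55.8 in LPS libraries, which did not overlap. The difference was 0.57 ± 0.13, or 1.48-fold (limma adjusted p = 0.00411). Eno2 was at 0, 0.0448 and 0.146 FPKM in control, 2.87, 1.19 and 1.43 in LPS, 0.519, 0.464 and 0.48 in Tm, and 1.67, 1.45 and 1.29 in Tm_LPS libraries. It reached 1 FPKM only in libraries with LPS and so passed the filter through them, which means that a higher value there had to occur. Its LPS difference was 1.37 ± 0.24 (limma adjusted p = 0.000561), and even then it was at most 0.208% of the summed FPKM of Eno1 and Eno2. Of the enolase genes outside the member list, Eno1b, a near-identical copy of Eno1, had a control mean of 567 FPKM and Eno3 one of 2.49.

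Pfkfb4 (chr9:108991778-109032228, plus strand) is an enzyme that sets the level of fructose 2,6-bisphosphate, the activator of phosphofructokinase. It was at 6.81, 6.16 and 7.35 FPKM in control, 3.01, 3.95 and 2.57 in LPS, 5, 7.36 and 5.44 in Tm, and 2.33, 1.54 and 4.89 in Tm_LPS libraries. The groups with LPS lay below those without it, with no overlap. The LPS difference was -0.91 ± 0.27, or 1.87-fold lower (limma adjusted p = 0.0266). It missed the threshold when control replicate 1 or 3 or LPS replicate 1 or 3 was left out, with limma adjusted p up to 0.103. Its relative Pfkfb3, which was at 6.54, 4.46 and 5.31 FPKM in control, 3.88, 3.92 and 4.51 in LPS, 4.85, 6.82 and 5.89 in Tm and 4.99, 2.82 and 3.83 in Tm_LPS libraries, passed in no contrast, and the groups overlapped in each of the 4 contrasts.

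The other 29 members did not pass for LPS. Hk2, which is often described as induced in LPS-stimulated macrophages, differed by 0.22 with a 95% interval of -0.18 to 0.62. Ldha differed by -0.03, with an interval of -0.22 to 0.16, and Taldo1 of the pentose phosphate pathway by 0.04, from -0.20 to 0.27. Pfkl and Pfkp, subunits of phosphofructokinase, were higher in every LPS library than in every control library, at 0.29 and 0.27, but missed the threshold (limma adjusted p = 0.109 and 0.0734).

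**Figure D2:**
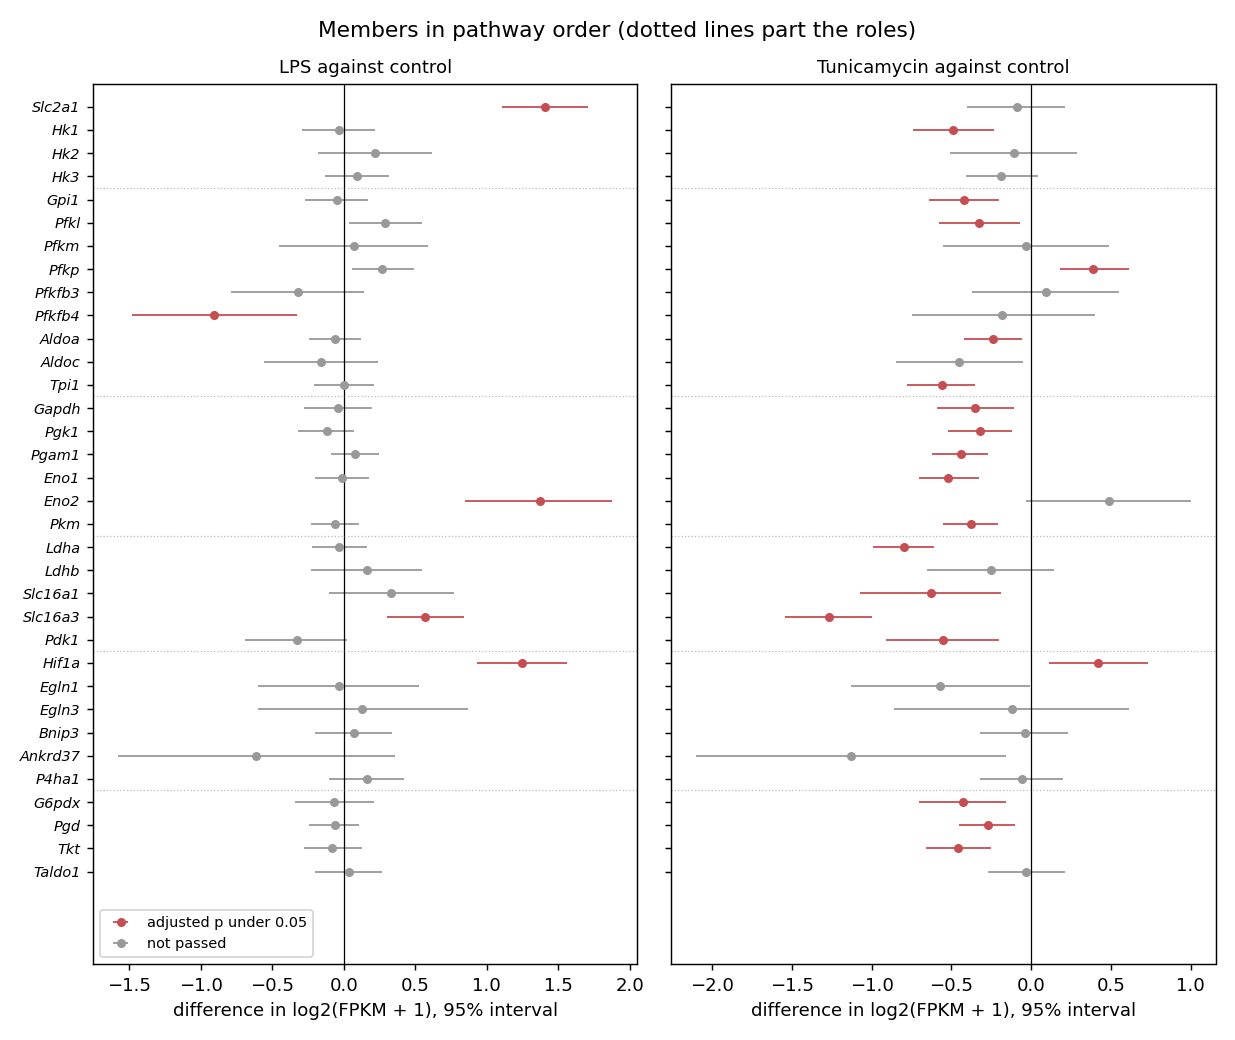
Difference from control in log2(FPKM + 1) (horizontal axes) for LPS alone and tunicamycin alone, for the 34 members in pathway order from glucose transport at the top to the pentose phosphate enzymes at the bottom. Dots are limma estimates with 95% intervals, red where the adjusted p is under 0.05. In the left panel 5 members passed and most dots sit near 0, and in the right panel 17 members are lower and 2 higher.

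Tunicamycin alone lowered much of the pathway, from hexokinase to lactate export, while 2 members rose. Of the 34 members 17 fell, which is 50%, where 16.6% of all tested genes fell. The 2 that rose are 5.88%, where 17.9% of all tested genes rose. In either direction 34.5% of all tested genes passed. The members' median difference was -0.32 and that of all tested genes 0.03. Lower glycolysis had 5 falls among 6 members with a median of -0.37, pyruvate and lactate handling 4 among 5 with -0.63, and the pentose phosphate pathway 3 among 4 with -0.35. Upper glycolysis had 4 falls and 1 rise among 9, glucose entry 1 fall among 4, and the group of HIF-1 with its regulators and targets no fall and 1 rise among 6.

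Abundant genes as a whole were lower with tunicamycin. Of the 950 tested genes with a mean of at least 100 FPKM over all libraries, 45.6% fell and 15.8% rose, with a median of -0.23. The 14 members in that class had 12 falls, which is 85.7%, and a median of -0.40. The 2 abundant members that did not pass were Hk3 and Taldo1. Neutrophil marker sums were also lower in Tm libraries, at 14.3 to 26.1 against 87 to 126 FPKM in control, and stromal marker sums higher, at 23.7 to 42.5 against 9.13 to 11.5. Among macrophage markers Cd68, Fcgr1 and Cd14 fell and Adgre1 rose. The part of these markers in the falls was not tested.

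The lactate end of the pathway had the largest falls. Slc16a3 was at 15.8, 12.6 and 14.8 FPKM in Tm libraries, below every library of the other groups. Its difference from control was -1.27 ± 0.13, or 2.41-fold lower (limma adjusted p = 1.23e-06). Ldha (chr7:46841475-46855627, plus strand), the lactate dehydrogenase subunit that makes up 98.9% to 99.5% of summed Ldha and Ldhb FPKM in these cells, was at 2047, 2095 and 2173 FPKM in control, 2057, 2286 and 1865 in LPS, 1295, 1166 and 1168 in Tm, and 1074, 1269 and 1168 in Tm_LPS libraries. The 6 libraries with tunicamycin were all below the 6 without it. The Tm difference was -0.80 ± 0.09, or 1.74-fold lower (limma adjusted p = 4.39e-06). Near-identical sequence exists in 4 other annotated genes, and reads shared with these could have been split.

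Slc16a1, which encodes the lactate and pyruvate transporter MCT1, was at 6.35, 6.88 and 6.01 FPKM in control, 6.86, 8.19 and 10.3 in LPS, 3.88, 3.39 and 4.13 in Tm, and 3.77, 4.46 and 2.65 in Tm_LPS libraries. The tunicamycin groups were again below both others without overlap, and the Tm difference was -0.63 ± 0.21 (limma adjusted p = 0.027). Summed FPKM of the pair Slc16a1 and Slc16a3 was 43.7, 40.3 and 43.3 in control and 19.7, 16 and 18.9 in Tm libraries. Pdk1, a kinase that restrains pyruvate dehydrogenase, was at 16.9, 14.7 and 15.4 FPKM in control, 13.6, 13.6 and 9.78 in LPS, 10.6, 9.56 and 10.9 in Tm, and 9.86, 13.4 and 11.6 in Tm_LPS libraries. Tunicamycin lowered Pdk1 by 1.47-fold (-0.55 ± 0.17, limma adjusted p = 0.0179), with no overlap between Tm and control. The call for Slc16a1 was lost without control replicate 1 or 2 or Tm replicate 1 or 2, and that for Pdk1 without control replicate 1 or Tm replicate 2, with limma adjusted p up to 0.0942 and 0.0696.

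Among the glycolytic enzymes Tpi1, the triose phosphate isomerase, fell most. It was at 657, 658 and 664 FPKM in control, 701, 727 and 564 in LPS, 501, 435 and 408 in Tm, and 493, 554 and 532 in Tm_LPS libraries. Control and Tm libraries did not overlap, and the difference was -0.56 ± 0.10, or 1.48-fold lower (limma adjusted p = 0.000418). The other falls in this stretch were 1.18-fold to 1.43-fold in size and came from Eno1, Pgam1, Gpi1, Pkm, Gapdh, Pfkl, Pgk1 and Aldoa, together with Hk1, the constitutive hexokinase, at 1.4-fold. No Tm library overlapped a control library in any of these 17 genes. Since the 17 were picked by passing the test, this is no separate support. The share of all tested genes without such overlap was not counted.

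Several of these calls were small relative to the spread. The calls for Hk1, Tpi1, Eno1, Pkm, Ldha, Slc16a3, Tkt and Pfkp held under all 21 alternative settings that were run. Leaving out Tm replicate 2 or Tm replicate 3 each left 11 of the 17 falls. Pfkl, Aldoa, Gapdh and Pgd each missed the threshold without Tm replicate 2 or 3 and in further settings, and Pgk1 and G6pdx without Tm replicate 3. With quantile normalization, which forces every library to the same distribution, the differences of Aldoa and Pgk1 became 0.01 and 0.01, and Gpi1, Gapdh, Pgam1, G6pdx and Pgd kept a negative difference without passing. Gapdh, which has 79 near-identical copies in the annotation, 75 of them pseudogenes, Pgk1 and Bnip3 with 4 each, Eno1 with 3, Pkm with 2, and Gpi1, Tpi1, Pgam1 and Ldhb with 1 each are uncertain to the extent that the counting split shared reads.

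Of the pentose phosphate members, G6pdx (chrX:74409483-74429194, minus strand) encodes the dehydrogenase that commits glucose 6-phosphate to the pathway. It was at 164, 156 and 163 FPKM in control, 160, 169 and 134 in LPS, 131, 119 and 109 in Tm, and 107, 131 and 88.8 in Tm_LPS libraries. Every library with tunicamycin was below every library without it, though the highest of the former, at 131, was close to LPS replicate 3 at 134. The Tm difference was -0.43 ± 0.13, or 1.35-fold lower (limma adjusted p = 0.0158). The transketolase gene Tkt fell 1.37-fold and Pgd, which encodes the next dehydrogenase after G6pdx, fell 1.21-fold. Taldo1, which encodes transaldolase, was at 563 ± 44.6 FPKM in control and 551 ± 41.1 in Tm libraries and did not pass in any contrast.

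The rises with tunicamycin were Pfkp and Hif1a. Pfkp (chr13:6579768-6648777, minus strand), the platelet-type phosphofructokinase, was at 63.8, 70.1 and 72.2 FPKM in control, 76.6, 86.7 and 86.4 in LPS, 87.6, 90.9 and 92.7 in Tm, and 123, 129 and 106 in Tm_LPS libraries. The 4 groups did not overlap and stood in that order. The Tm difference was 0.39 ± 0.10, or 1.31-fold (limma adjusted p = 0.00645), while the liver-type gene Pfkl went from 51.1, 49.9 and 42.3 to 40.1, 38 and 35.4 FPKM. Pfkp thus made up 53.8%, 57.5% and 61.8% of summed phosphofructokinase FPKM in control and 67.3%, 68.9% and 71.2% in Tm libraries, while the sum was 119, 122 and 117 against 130, 132 and 130 FPKM. Hif1a rose by 0.42 ± 0.15, or 1.34-fold (limma adjusted p = 0.0368). That call was lost in 9 of the 21 alternative settings, among them the fits without control replicate 2 or 3 or without any single Tm replicate, with limma adjusted p between 0.0152 and 0.138.

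**Figure D3:**
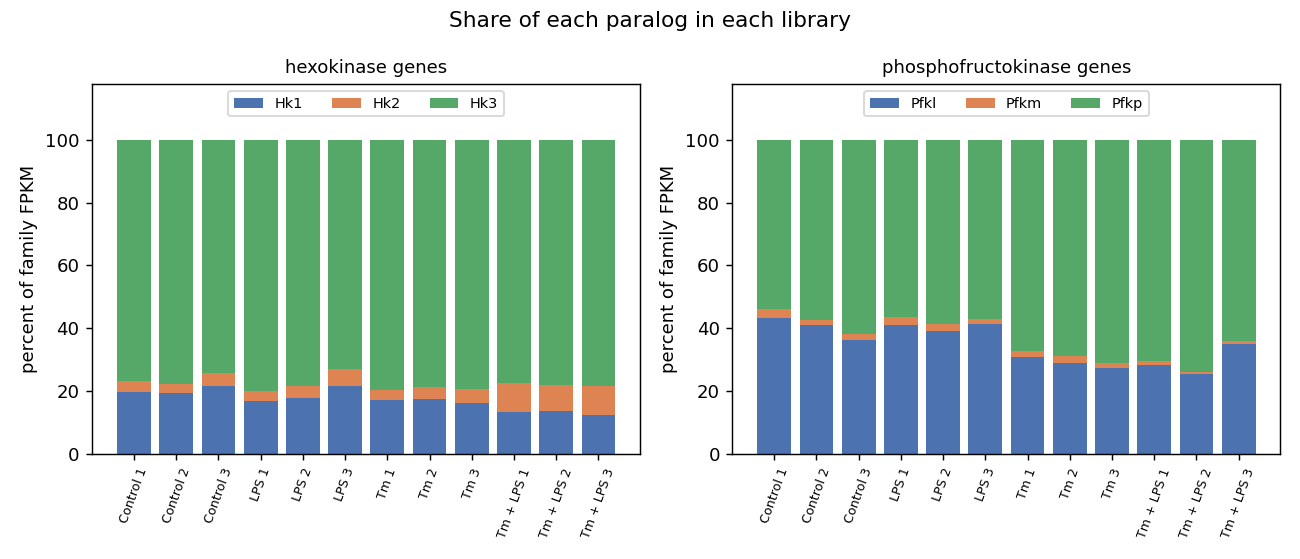
Percent of summed FPKM (vertical axes) of each hexokinase gene (left) and each phosphofructokinase gene (right) in each of the 12 libraries. Hk2 takes 8.14% to 9.48% in Tm_LPS libraries and at most 5.47% in the others, and Pfkp takes 64.2% to 73.9% in libraries with tunicamycin.

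In macrophages that had received tunicamycin, LPS raised glucose entry, phosphofructokinase, lactate export and Hif1a, with Hk2 at the head. Against Tm alone 7 members rose, which is 20.6%, where 8.69% of all tested genes rose. The single fall, Pfkfb4, is 2.94%, where 7% of all tested genes fell, and 15.7% passed in either direction. The members' median was 0.21 and that of all tested genes -0.01. The highest rises were those of Hk2, Slc2a1, Slc16a3 and Hif1a. Pfkl, Pfkp and Pgd rose by 0.41, 0.39 and 0.35.

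Hk2 (chr6:82725025-82774454, minus strand) encodes the hexokinase that is inducible in most tissues and can dock on mitochondria. It was at 8.06, 7.31 and 8.54 FPKM in control, 6.93, 9.59 and 12.4 in LPS, 6.43, 7.68 and 7.91 in Tm, and 19.8, 19.3 and 23 in Tm_LPS libraries. The 3 Tm_LPS libraries were above all 9 others, which overlapped. Against Tm the difference was 1.38 ± 0.19, or 2.6-fold (limma adjusted p = 6.1e-05), and against LPS 1.06 ± 0.19, or 2.08-fold (limma adjusted p = 0.000541). Its share of summed hexokinase FPKM was 3.52%, 3% and 4.08% in control, 3.01%, 3.64% and 5.47% in LPS, 3.28%, 3.77% and 4.48% in Tm, and 9.23%, 8.14% and 9.48% in Tm_LPS libraries. Hk3, the main hexokinase gene of these cells by FPKM, held 73.1% to 80.1% throughout, and its levels of 174 ± 16.8, 186 ± 20.7, 152 ± 10.9 and 181 ± 12.8 FPKM in the same order passed in no contrast.

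Slc2a1 rose 1.89-fold with LPS after tunicamycin, by 0.92 ± 0.14 (limma adjusted p = 0.000221). Slc16a3 went from its low of 15.8, 12.6 and 14.8 FPKM in Tm to 23.9, 29.5 and 25.8 in Tm_LPS libraries, a difference of 0.83 ± 0.13 (limma adjusted p = 0.000196). These were still below the 3 control libraries, whose lowest value was 33.4. Hif1a rose by 0.51 ± 0.15 (limma adjusted p = 0.0277). Pfkfb4 fell by 0.90 on the log2 scale, with an SE of 0.27 and a limma adjusted p of 0.0324. The calls for Hif1a, Pfkl and Pfkfb4 were not stable: each was lost in 6 to 8 of the 21 alternatives, among them the fits without Tm replicate 2 or Tm replicate 3. Hif1a's was also lost without Tm replicate 1 or Tm_LPS replicate 2, Pfkl's without Tm_LPS replicate 1 or 3, and Pfkfb4's without Tm_LPS replicate 1 or 2.

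Pgd (chr4:149149991-149166771, minus strand) was at 231, 205 and 224 FPKM in control, 222, 199 and 211 in LPS, 191, 180 and 174 in Tm, and 237, 229 and 229 in Tm_LPS libraries. The Tm libraries were below and did not overlap any other group. LPS after tunicamycin raised it by 0.35 ± 0.08, or 1.27-fold (limma adjusted p = 0.00816), a call that was lost with quantile normalization and without the trend, with adjusted p up to 0.325. Pfkp's was lost with quantile normalization alone (limma adjusted p = 0.197). G6pdx, upstream of it in the pathway, differed by -0.15 with a 95% interval of -0.42 to 0.12.

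With LPS present in both groups, tunicamycin left the lactate end and GLUT1 lower and Hk2 and Pfkp higher. Comparing Tm_LPS with LPS, 9 members were lower, which is 26.5%, where 15.1% of all tested genes were lower. The 2 higher members are 5.88%, where 13.8% of all tested genes were higher, and 28.9% passed in either direction. The members' median was -0.17 and that of all tested genes 0.00. In the class of at least 100 FPKM, 5 of the 14 members, or 35.7%, were lower, against 39.1% of all 950 genes in it. This contrast shares its LPS libraries with the contrast of LPS with control, and its Tm_LPS libraries with that of Tm_LPS and Tm.

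Slc16a1 had the largest fall, -1.03 ± 0.21 or 2.04-fold (limma adjusted p = 0.00139), close to that of Slc16a3 at -1.01 ± 0.13 or 2.01-fold (limma adjusted p = 2.02e-05). Ldha was lower by 1.77-fold (-0.82 ± 0.09, limma adjusted p = 4.54e-06). Slc2a1 was 1.5-fold lower (-0.58 ± 0.14, limma adjusted p = 0.00596). These genes were picked by passing the test and do not stand for all transport and lactate genes. Slc2a6, a hexose transporter gene outside the member list, passed as higher, at 275 ± 60.1 FPKM in Tm_LPS and 158 ± 20.3 in LPS libraries (SD, n = 3). Among the members Hk1 at 1.47-fold, G6pdx at 1.43-fold, Pgam1 at 1.35-fold and Tpi1 at 1.25-fold were also lower. Eno1 passed with limma adjusted p = 0.0466 although 1 Tm_LPS library overlapped an LPS library, and lost the call in 14 of the 21 alternatives, 9 of which leave out a single library. Tpi1 lost it in 7, among them the fits without LPS replicate 1 or 2 or Tm_LPS replicate 1. Pfkp was 1.43-fold higher (0.51 ± 0.10, limma adjusted p = 0.00118). The neutrophil marker sums, 190 to 318 FPKM in LPS and 17.2 to 32.5 in Tm_LPS libraries, moved in the same direction as the lower members, and their part in the result was not tested.

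The interaction, which subtracts the LPS effect in cells without tunicamycin from that in cells with it, passed for a single member. Hk2's was 1.16 ± 0.27, with a 95% interval of 0.60 to 1.73 and a limma adjusted p of 0.0222. Among all tested genes 3.37% passed for the interaction. The single member is 2.94% of the members, where 1.41% of all tested genes had a higher and 1.96% a lower LPS effect with tunicamycin. The call was lost with no filter, without LPS replicate 1, without Tm replicate 1 and without Tm_LPS replicate 3, with limma adjusted p up to 0.0572 over all alternatives. Hif1a had an LPS effect of 1.25 without and 0.51 with tunicamycin. That difference of -0.74 ± 0.21 missed the threshold (limma adjusted p = 0.0644) and passed without control replicate 1 or without Tm_LPS replicate 2, the highest Tm_LPS library. Slc2a1, at -0.49 with a 95% interval of -0.91 to -0.06 and a limma adjusted p of 0.254, did not pass, so a smaller response to LPS was not shown for it. Ldha's interaction was -0.02, with an interval of -0.29 to 0.25, and Slc16a3's 0.26, from -0.12 to 0.64.

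**Figure D4:**
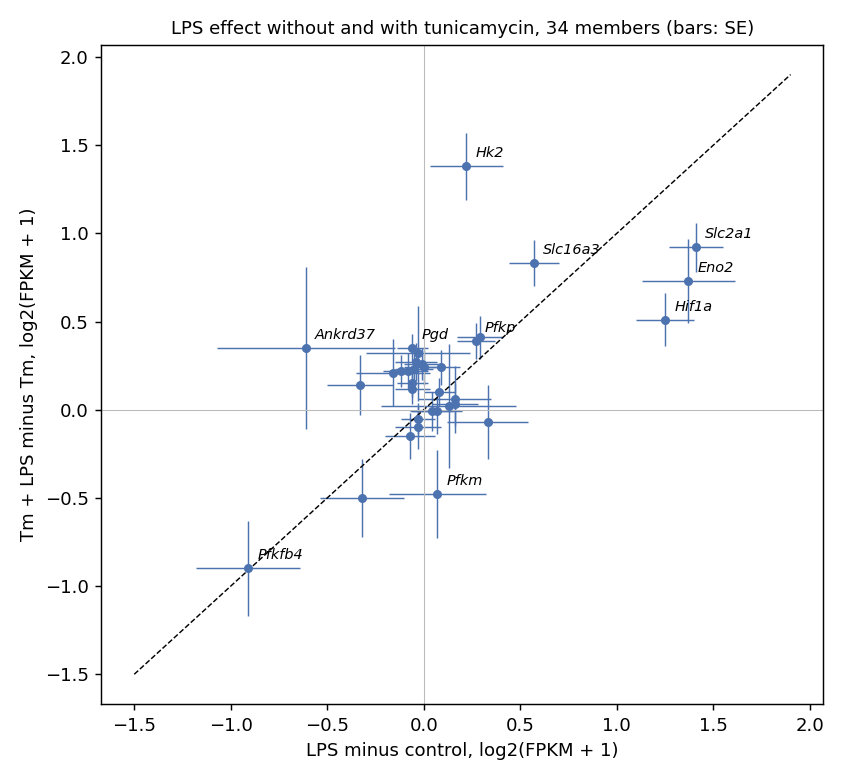
LPS effect without tunicamycin (horizontal axis, LPS minus control) against that with tunicamycin (vertical axis, Tm_LPS minus Tm), both in log2(FPKM + 1), for the 34 members with SE bars. On the dashed line both effects are equal. Hk2 lies above it at 0.22 and 1.38, and Slc2a1, Eno2 and Hif1a lie below it.

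Besides Hif1a, the 5 members that regulate HIF-1 or are known as its targets outside glycolysis passed in no contrast. Egln3, an oxygen-sensing prolyl hydroxylase and known HIF-1 target, was at 3.36, 1.9 and 0.529 FPKM in control, 2.83, 1.52 and 1.64 in LPS, 1.81, 1.32 and 1.3 in Tm, and 0.958, 1.09 and 2.83 in Tm_LPS libraries. All groups overlapped, and its SD reached 73.3% of the mean in control libraries. Ankrd37, another known target, was as scattered, between 0.308 and 5.74 FPKM. Bnip3, a mitophagy receptor, was at 44.5 ± 8.12, 46.4 ± 4.81, 42.7 ± 1.84 and 42.5 ± 1.77 FPKM in control, LPS, Tm and Tm_LPS libraries (SD, n = 3). P4ha1, a collagen prolyl hydroxylase subunit, was at 24.5 ± 2.95, 27.4 ± 1.41, 23.3 ± 0.752 and 23.8 ± 1.25 FPKM in the same order. The 95% intervals of the LPS difference were -0.20 to 0.34 for Bnip3, -0.10 to 0.42 for P4ha1 and -0.60 to 0.87 for Egln3, the last being too wide to detect a modest change. Egln1, the main oxygen sensor of HIF-1, was between 1.24 and 3.56 FPKM. The further members without any call were Hk3, Pfkm, Pfkfb3, Aldoc, Ldhb and Taldo1, which makes 11 of the 34, while 23, or 67.6%, passed in at least 1 of the 4 contrasts between groups. Of all tested genes 52.4% did.

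Other known HIF-1 targets were taken from a separate list. Of 27 tested, 12 rose with tunicamycin, which is 44.4%, and 4 fell, which is 14.8%, with a median of 0.28. Of all tested genes 17.9% rose and 16.6% fell, so the share that fell was near that of all genes. The 12 rises include Cxcr4, which reached 1 FPKM only in libraries with tunicamycin, so that a higher value there had to occur. Rora, another of the 12, was at 1.73, 1.94 and 2.44 FPKM in Tm libraries. Without tunicamycin it reached 1 FPKM only in control replicate 1, at 1.31. It too passed the filter through libraries with tunicamycin, so its rise is no separate support. Nfil3, a transcription factor, rose by 2.80 ± 0.21, Ndrg1, a stress-response gene, by 2.19 ± 0.16, and Ero1l, an ER oxidase that also responds to ER stress, by 1.95 ± 0.16. With LPS 5 rose and 3 fell, which is 18.5% and 11.1% against 10.5% and 7.86% of all tested genes, and Ccng2 and Adm were among the rises, at 0.90 and 0.80. Adm's LPS call was lost without control replicate 1 or 2 or LPS replicate 2 or 3. In Tm_LPS against Tm 2 rose and 2 fell, 7.41% each, near the 8.69% and 7% of all tested genes, with Adm at 1.08 and Narf at -0.72. Narf's call was lost in 6 of 21 alternatives, among them the fits without Tm replicate 2 or 3 or Tm_LPS replicate 1 or 2. The other fall was Cxcr4, which passed the filter through the Tm libraries, so that a lower value elsewhere had to occur. Against LPS 8 were higher and 5 lower in Tm_LPS, which is 29.6% and 18.5% against 13.8% and 15.1% of all tested genes, led by Nfil3, Ndrg1 and Ero1l at 3.63, 1.84 and 1.77.

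Of the HIF subunits and regulators 9 were tested, and 4 rose and none fell with tunicamycin, which is 44.4% and 0%, where 17.9% of all tested genes rose and 16.6% fell. Siah2, a ubiquitin ligase that acts on the prolyl hydroxylases, was at 4.11 ± 1.22, 7.7 ± 0.637, 20.7 ± 2.62 and 48.2 ± 4.78 FPKM in control, LPS, Tm and Tm_LPS libraries (SD, n = 3) and passed as a rise in all 4 contrasts. Siah1a rose by 1.39 with tunicamycin and Vhl, the ligase subunit that recognises hydroxylated HIF, by 1.02. Cited2, which competes with HIF for its coactivators, was at 25.3 ± 3.28, 82.6 ± 25.5, 25.7 ± 4.08 and 186 ± 10.3 FPKM. Its LPS effect was 1.63 without and 2.82 with tunicamycin, and the interaction of 1.19 passed (limma adjusted p = 0.0121), but not with no filter or without the trend in limma, with adjusted p up to 0.0701. Vhl's interaction of -1.13 passed (limma adjusted p = 0.0365) but was lost in 12 of 20 alternatives, 10 of which leave out a single library, among them any control or any Tm library, with adjusted p up to 0.105. With LPS alone 2 regulators rose, or 22.2% against 10.5% of all tested genes. In Tm_LPS against Tm 2 rose and Vhl fell by 0.78 on the log2 scale, a call that was lost without Tm replicate 2 or Tm_LPS replicate 1, and against LPS 3 were higher, at 2.50 for Siah2, 1.21 for Cited2 and 1.05 for Siah1a, which is 33.3% against 13.8%. With so few genes these shares rest on 1 to 4 calls. Epas1, which encodes the alpha subunit of HIF-2, was at most 0.62 FPKM and was not tested.

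**Figure D5:**
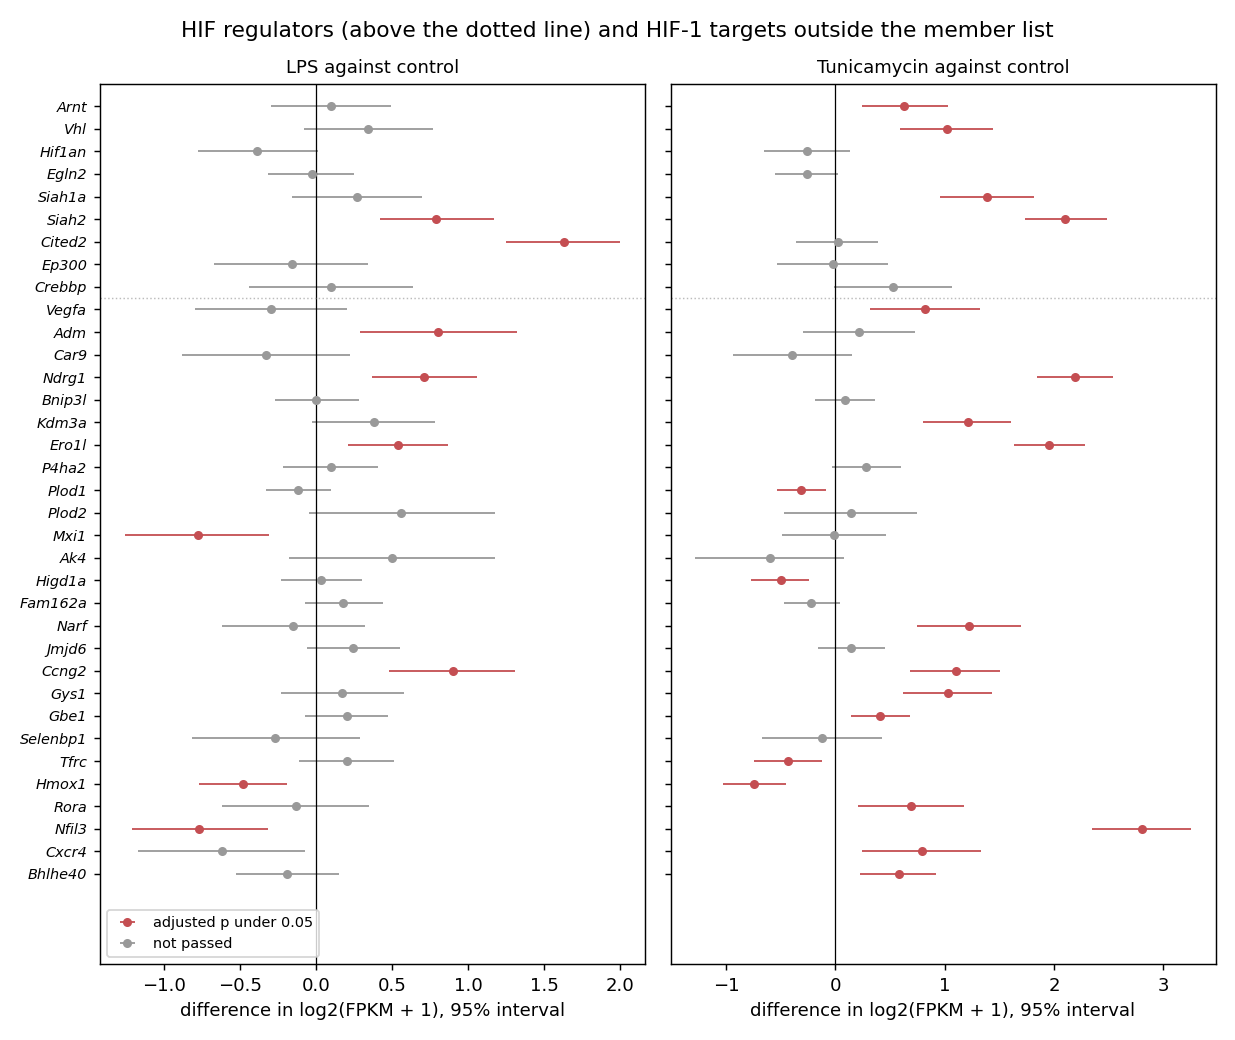
Difference from control in log2(FPKM + 1) (horizontal axes) for LPS alone and tunicamycin alone, for 9 HIF regulators above the dotted line and other HIF-1 targets below it. Dots are limma estimates with 95% intervals, red where the adjusted p is under 0.05. With tunicamycin 4 of the regulators and 12 of the targets are higher.

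Among 17 tested genes of sugar transport and related glycolytic steps, Slc2a6, which encodes the lysosomal hexose transporter GLUT6, had the largest differences from control with either agent. It was at 27.5 ± 6.39, 158 ± 20.3, 149 ± 12.5 and 275 ± 60.1 FPKM in control, LPS, Tm and Tm_LPS libraries (SD, n = 3). Its LPS effect was 2.50 without and 0.86 with tunicamycin, and the interaction of -1.64 ± 0.23 passed (limma adjusted p = 0.000477). Gpd2, the mitochondrial glycerol phosphate dehydrogenase, rose with LPS by 1.07 without and 1.24 with tunicamycin. Minpp1 and Bsg, the latter a chaperone of the monocarboxylate transporters, fell with tunicamycin by 0.47 and 0.25 on the log2 scale. Minpp1's call was lost without control replicate 2 or 3 or Tm replicate 1 or 2. Bsg's was lost in 6 alternatives, 5 of which leave out control replicate 1 or 3 or any Tm replicate, and its difference turned to 0.02 with quantile normalization. Adpgk and Minpp1 differed by -0.66 each between Tm_LPS and LPS. In all 2 of the 17 rose with LPS (11.8%, against 10.5% of all tested genes), 1 rose and 2 fell with tunicamycin (5.88% and 11.8%, against 17.9% and 16.6%), 2 rose in Tm_LPS against Tm (11.8%, against 8.69%), and 1 was higher and 2 lower against LPS (5.88% and 11.8%, against 13.8% and 15.1%). These shares were near or below those of all genes.

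Of 12 tested genes of pyruvate entry into mitochondria, 5 rose and 2 fell with tunicamycin, which is 41.7% and 16.7%, where 17.9% of all tested genes rose and 16.6% fell. Pdp1, a phosphatase that activates pyruvate dehydrogenase and so opposes Pdk1, was at 12.1 ± 1.82, 1.96 ± 0.0912, 39.1 ± 3.29 and 10.7 ± 0.582 FPKM in control, LPS, Tm and Tm_LPS libraries. It fell with LPS by 2.13 without and by 1.77 with tunicamycin on the log2 scale, and rose with tunicamycin by 1.62 ± 0.16 (limma adjusted p = 8.73e-07). Dld, the shared dehydrogenase subunit of the complex, passed as higher in all 4 contrasts, at 49.8 ± 6.76 FPKM in control and 131 ± 4.97 in Tm_LPS libraries. Its call for LPS was lost with quantile normalization and without control replicate 1 or LPS replicate 1 or 2 (limma adjusted p up to 0.0915), and that for Tm_LPS against Tm with quantile normalization and without Tm replicate 2 (up to 0.107). Pcx, pyruvate carboxylase, rose by 0.83 with tunicamycin, a call lost in 6 of 20 alternatives, among them the fits without control replicate 2 or 3 or Tm replicate 2 or 3. Pdk3 was lower at -0.79 in Tm_LPS than in LPS, a call lost without LPS replicate 2 or 3 or Tm_LPS replicate 3. In LPS against control and in Tm_LPS against Tm, 1 rose and 1 fell, 8.33% each and near the shares of all tested genes. In Tm_LPS against LPS 3 were higher and 3 lower, 25% each, against 13.8% and 15.1% of all tested genes.

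Of 9 other pentose and ribose phosphate genes few passed. Shpk, the sedoheptulose kinase, rose by 1.00 with tunicamycin and fell by 1.76 on the log2 scale when LPS followed, at 1.21 ± 0.402, 3.43 ± 0.765 and 0.343 ± 0.457 FPKM in control, Tm and Tm_LPS libraries. The rise was lost in 7 of 20 alternatives, among them the fits without control replicate 1 or 3 or Tm replicate 1 or 2, with limma adjusted p up to 0.267. Prps2, a ribose phosphate pyrophosphokinase, differed by -0.82 with tunicamycin alone and by -0.97 in Tm_LPS against LPS. H6pd, the dehydrogenase of the ER lumen that corresponds to G6pdx, differed by -0.57 with LPS alone and by -0.79 with LPS after tunicamycin. Its call for LPS alone was lost without control replicate 2 or 3 or LPS replicate 1 or 3. There was 1 fall with LPS (11.1%, against 7.86% of all tested genes), 1 rise and 1 fall with tunicamycin (11.1% each, against 17.9% and 16.6%), 2 falls in Tm_LPS against Tm (22.2%, against 7%) and 1 in Tm_LPS against LPS (11.1%, against 15.1%).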

How the data were processed

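RNA sequencing of 12 libraries of mouse macrophages gave 1 table in FPKM. Per the submitters' processing notes the authors' tools were Cufflinks 2.2.1, TopHat2 2.0.13, Bowtie2 2.2.3 and SAMtools 0.1.19, with mm10 as genome, and the deposited values are FPKM. The sources used here do not name the gene annotation, the strand setting or a step that levels libraries. FPKM divide by a measure of each library's size and so hide any difference in RNA content per cell. Scaling factors by median of ratios ran from 1.013 to 1.019, while summed FPKM ran from 561108 to 685010. The values were thus already level by median of ratios, and the alternative with that scaling could change little.

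Genes with at least 1 FPKM in at least 3 libraries (10311 of 24346) were fitted as log2(FPKM + 1) with limma 3.58.1 (lmFit, eBayes with trend) in R 4.3.3. The 12 libraries entered a single fit with a mean for each group. The 4 contrasts between groups and their interaction were adjusted by Benjamini-Hochberg over all tested genes, with the threshold at 0.05. A simulation with 200 changed genes served to test the fit. Whole reads were not recovered, since only 7.07% to 19% of low genes shared the commonest ratio between libraries, so depth is unknown and precision is the spread between replicates.

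The members and all gene lists were chosen with earlier results of these data known. Every member is accounted for. Values per library are given for Hif1a, Slc2a1, Hk2, Pfkfb3, Ldha, Pdk1, G6pdx and Egln3 and, in each contrast, for the passing members with the 4 largest rises and 4 largest falls. From each other list the passing genes with the 3 largest differences are named. Some items that meet these rules are not reported here. Other members with values per library (Pfkl, Pgd) were chosen after their values were seen. Coordinates are from GENCODE M21 on mm10, promoters from RefSeq on GRCm38.p6. Near-identical copies had at least 95% identity over at least 200 bases (BLAST 2.17.0). Figures used matplotlib 3.10.9 in Python 3.11.15. The alternatives changed the pseudocount (0.1), the filter (none, or 5 FPKM), the scaling (by median of ratios, or quantile), the model (with a replicate block, or fitted to the libraries of a contrast alone) and eBayes (no trend, or robust), and left out each library in turn.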

Additional observations from a re-analysis of the deposited data

Results flagged for a closer look

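Hk2 passed for a response to LPS that differed with and without tunicamycin, though the call was not stable. Its interaction in limma was 1.16 on the log2(FPKM + 1) scale, from an LPS effect of 0.22 without tunicamycin and 1.38 with it, with an adjusted p of 0.0222. The 3 Tm_LPS libraries, at 19.3 to 23 FPKM, were above all others. No other member's interaction passed, and 1 of 34 members is 2.94%, where 3.37% of all tested genes passed. The call was lost in 4 of 20 alternatives: with no filter and without LPS replicate 1, Tm replicate 1 or Tm_LPS replicate 3. The cause was not tested.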

How the results depend on the processing

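Of the 3 directions that turned, all did so for tunicamycin against control with quantile normalization: Aldoa to 0.01, Pgk1 to 0.01 and Bsg to 0.02. Quantile normalization also gave 5 members lower with LPS (1 in the reported fit), 1 higher and 11 lower with tunicamycin (2 and 17), 4 higher and 3 lower in Tm_LPS against Tm (7 and 1), and 4 higher in Tm_LPS against LPS (2). Over all genes it turned the split of Tm_LPS against Tm from 55.4% to 44.2% higher among those called, with 751 higher and 950 lower. With no filter 0 members were lower with LPS, 1 was higher with tunicamycin, 0 were lower in Tm_LPS against Tm, and 0 passed the interaction (1 in the reported fit). Without the trend 1 member was higher and 11 lower with tunicamycin. With only the samples of the contrast 0 members were lower in Tm_LPS against Tm.

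Replicate numbers are shared between groups, but same-numbered libraries correlated in their deviations at only -0.039 to 0.095 over 18 pairs, none over 0.1, so the numbers were not taken to pair samples. The median was 0.024 over these 18 pairs and 0 over the 36 pairs with different numbers. For 8 of the 12 libraries the mean correlation was highest with the libraries of their own number. What the numbers mark was not tested. With the replicate block 1 member was higher with tunicamycin instead of 2, since Hif1a no longer passed, and the block also ended the calls of Pfkl in the same contrast and of Eno1 in Tm_LPS against LPS. It changed no other call of a member.

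Leaving out each library in turn gave 0 to 1 member lower with LPS, 1 to 2 higher and 11 to 18 lower with tunicamycin, 0 to 1 lower in Tm_LPS against Tm, and 0 to 1 higher and 0 to 1 lower in the interaction. Over all genes it gave 1064 to 1652 calls in Tm_LPS against Tm (1618, lowest without Tm replicate 2) and 229 to 353 in the interaction (347, lowest without Tm replicate 3). The cause of these changes was not tested. Depth is unknown, so for members at a few FPKM, such as Egln3, Ankrd37 and Pfkm, only differences well above the replicate spread could have been detected.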
